A study of Mus musculus with 8 samples.

Results

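The 8 genes described here were the transcription factors Mef2a, Mef2b, Mef2c and Mef2d and the class IIa histone deacetylases Hdac4, Hdac5, Hdac7 and Hdac9. Regions with differing H3K27ac were assigned to a gene when their centre lay inside it, when one of its annotated transcription starts was the closest protein-coding start, or when their centre lay within 200 kb of one of its starts. By this rule the 8 genes held 41 of 11179 regions placed on chromosomes 1 to 19, X and Y, 21 from the list of regions increased in Nrip1 KO myotubes and 20 from the list of decreased regions. The increased share was 51.2% (95% Wilson interval 36.5 to 65.7), beside 35.0% over all regions; the interval covers counting error over regions only.

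H3K27ac, acetylation of lysine 27 of histone H3, marks active promoters and enhancers and was mapped by CUT&RUN, in which an antibody directs a nuclease to marked chromatin. The myotubes, fused muscle cells grown in culture, came from satellite cells of gastrocnemius muscle of Nrip1 KO and control mice and had been differentiated for 4 days. Nrip1 encodes RIP140, a nuclear receptor coregulator. Libraries formed 4 groups of 2, namely H3K27ac and IgG in each genotype. The KO mice carried Nrip1 fl/fl (C57BL/6J) with Cre driven by a muscle creatine kinase promoter in striated muscle, and the controls were Cre-negative littermates; a myogenin-Cre line was also used in the study, and the labels of the cultures give Nrip1KO without naming the driver. Mice of the study were 8 to 16 weeks old and of both sexes, while the age, sex and number of animals behind the cultures are not given in the sources used here. The deposited lists give positions only, for regions with a 2-fold or larger difference in peak intensity, so no level, depth, IgG background or spread between replicates could be given for any gene, and no difference below was tested. At Nrip1 itself, on chromosome 16, no increased and 3 decreased regions lay inside the gene or nearest to its start. On that chromosome 66 of 846 regions (7.8%) were increased, so the direction at Nrip1 was the prevailing one there. A decreased region inside or nearest was present at 18.8% of all protein-coding genes, and a link of the 3 regions to the deletion was not tested. Of 12 myotube markers, 2 (16.7%) had an increased region inside or nearest, beside 11.3% of all protein-coding genes, and 1 (8.33%) had a decreased one, beside 18.8%. With the 200 kb rule the counts were 10 (83.3%) and 9 (75.0%), beside 37.7% and 57.7%. The myosin genes Myh1, Myh2, Myh3, Myh4 and Myh8 all lie on chromosome 11 and had 2 increased regions each. In the same order they had 4, 4, 4, 2 and 1 decreased regions. Neighbouring genes can share a region under this rule, so these genes are not independent counts. Because the lists hold differing regions only, the identity of the cells could not be checked from them.

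MEF2 proteins are MADS-box factors that bind an A/T-rich element at muscle genes, where they act together with myogenic factors such as MyoD and myogenin. Class IIa deacetylases bind MEF2 directly and repress its targets. Calcium/calmodulin-dependent kinases and protein kinase D phosphorylate these deacetylases, which 14-3-3 proteins then hold in the cytoplasm, so that MEF2 targets are released. In skeletal muscle the pair is known for coupling nerve activity and exercise to oxidative and slow-fibre gene programs.

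The regions that recur in the sections below are shown by short stretches around motif matches, 40 bases on each side, written 5′ to 3′ on the forward strand of GRCm38.p6 (mm10). Capitals mark the match. In 4 of the 5 increased regions that lay upstream of Mef2a and nearest to it, a match to the AP-1 motif TGACTCA was present on one strand or the other, and in the 3 increased regions inside the gene it was absent. That made 4 of 8, beside 25.0% of all regions and 28.9% of increased regions on chromosome 7, each searched over its whole width.
Mef2a AP-1 match, chr7:67384297-67384383: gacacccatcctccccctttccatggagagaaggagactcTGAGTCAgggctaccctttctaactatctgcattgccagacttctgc
Mef2a AP-1 match, chr7:67390892-67390978: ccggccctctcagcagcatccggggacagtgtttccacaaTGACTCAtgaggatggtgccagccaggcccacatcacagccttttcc
Mef2a AP-1 match, chr7:67426226-67426312: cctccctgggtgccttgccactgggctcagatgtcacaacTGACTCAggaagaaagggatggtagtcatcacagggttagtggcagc
Mef2a AP-1 match, chr7:67442952-67443038: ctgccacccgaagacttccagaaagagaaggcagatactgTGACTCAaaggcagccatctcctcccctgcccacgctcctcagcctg

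The widest region at Mef2a lay in its intron and held 2 matches to the MEF2 consensus, the element that the encoded protein itself recognises. Of the 8 regions inside or nearest to Mef2a it was the only 1 with a match (12.5%, whole width searched). The shares were 15.3% over all regions and 21.4% over increased regions on chromosome 7. Repeat-masked bases made up 45.5% of this widest Mef2a region, beside a median of 14.0% over all regions.
Mef2a MEF2 match, chr7:67318330-67318419: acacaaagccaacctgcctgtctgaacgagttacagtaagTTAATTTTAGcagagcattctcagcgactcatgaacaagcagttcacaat
Mef2a MEF2 match, chr7:67319701-67319790: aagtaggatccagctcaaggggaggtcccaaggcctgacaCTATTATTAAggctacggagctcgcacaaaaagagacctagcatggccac

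In decreased regions, a pair in an intron of Hdac7 each held a MEF2 match and an AP-1 match, and a region upstream of Hdac4 held 2 AP-1 matches, of which the one closest to the region centre is shown.
Hdac7 MEF2 match, chr15:97821318-97821407: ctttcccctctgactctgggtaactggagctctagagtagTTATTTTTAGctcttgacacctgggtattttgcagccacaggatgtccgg
Hdac7 AP-1 match, chr15:97821694-97821780: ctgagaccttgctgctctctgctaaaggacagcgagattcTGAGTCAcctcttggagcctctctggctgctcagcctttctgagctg
Hdac7 MEF2 match, chr15:97825236-97825325: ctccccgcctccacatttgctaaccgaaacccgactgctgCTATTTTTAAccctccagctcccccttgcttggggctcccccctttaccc
Hdac7 AP-1 match, chr15:97825144-97825230: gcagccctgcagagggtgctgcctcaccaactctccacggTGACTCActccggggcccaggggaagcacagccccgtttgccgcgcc
Hdac4 AP-1 match, chr1:92316483-92316569: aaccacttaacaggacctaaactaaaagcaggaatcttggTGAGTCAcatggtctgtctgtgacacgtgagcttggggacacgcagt

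Upstream of Mef2c, a MEF2 match and an AP-1 match fell in 2 separate increased regions in the gene-poor interval before the gene. Each motif was thus present in 20.0% of the 5 Mef2c regions, beside 21.4% (MEF2) and 25.6% (AP-1) of all increased regions, whole width searched.
Mef2c MEF2 match, chr13:82890635-82890724: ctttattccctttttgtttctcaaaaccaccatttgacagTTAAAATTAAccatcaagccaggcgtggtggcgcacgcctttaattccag
Mef2c AP-1 match, chr13:83037496-83037582: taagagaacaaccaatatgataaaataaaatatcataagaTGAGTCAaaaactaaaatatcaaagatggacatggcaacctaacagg

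More regions were increased than decreased at Mef2a and Mef2c of the Mef2 genes and at Hdac9 of the deacetylases, and at the other 5 genes more were decreased. The 4 Mef2 genes held 24 regions, 18 increased and 6 decreased, an increased share of 75.0% (95% Wilson interval 55.1 to 88.0). The 4 class IIa genes held 17 regions, 3 increased and 14 decreased, 7 of the latter at Hdac7, an increased share of 17.6% (6.19 to 41.0). Both intervals treat regions as independent draws, which regions of 1 locus are not, so they do not measure a difference between the families. The Mef2 share rested on Mef2a, which alone held 12 of the increased regions. Without it, the other 3 Mef2 genes held 6 increased regions, 5 of them at Mef2c, and 5 decreased ones, and the difference between the families was not tested, since regions of 1 locus are not independent. Without Mef2a, the other 7 genes held 9 increased and 19 decreased regions, a share of 32.1% (17.9 to 50.7).

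An increased region was assigned to 5 of the 8 genes, beside 37.7% of all 21938 protein-coding genes under the same rule, and a decreased region to 6 of 8, beside 57.7%. Because the 200 kb limit reaches past neighbouring genes, the narrower assignment (inside the gene, or nearest start) is the more specific one. It held 22 of the 41 regions, 14 increased and 8 decreased. Under it 3 of 8 genes had an increased region (Mef2a, Mef2c and Hdac9; 11.3% of all protein-coding genes had one) and 3 had a decreased region (Mef2d, Hdac4 and Hdac7; 18.8% of all). None had both, and Mef2b and Hdac5 had neither. The genes with regions were mostly long. Among the 2492 protein-coding genes of at least 100 kb, a class that holds Mef2a, Mef2c, Hdac4 and Hdac9, 34.6% had an increased and 44.3% a decreased region inside or nearest, so gene length moved with these counts.

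**Figure D1:**
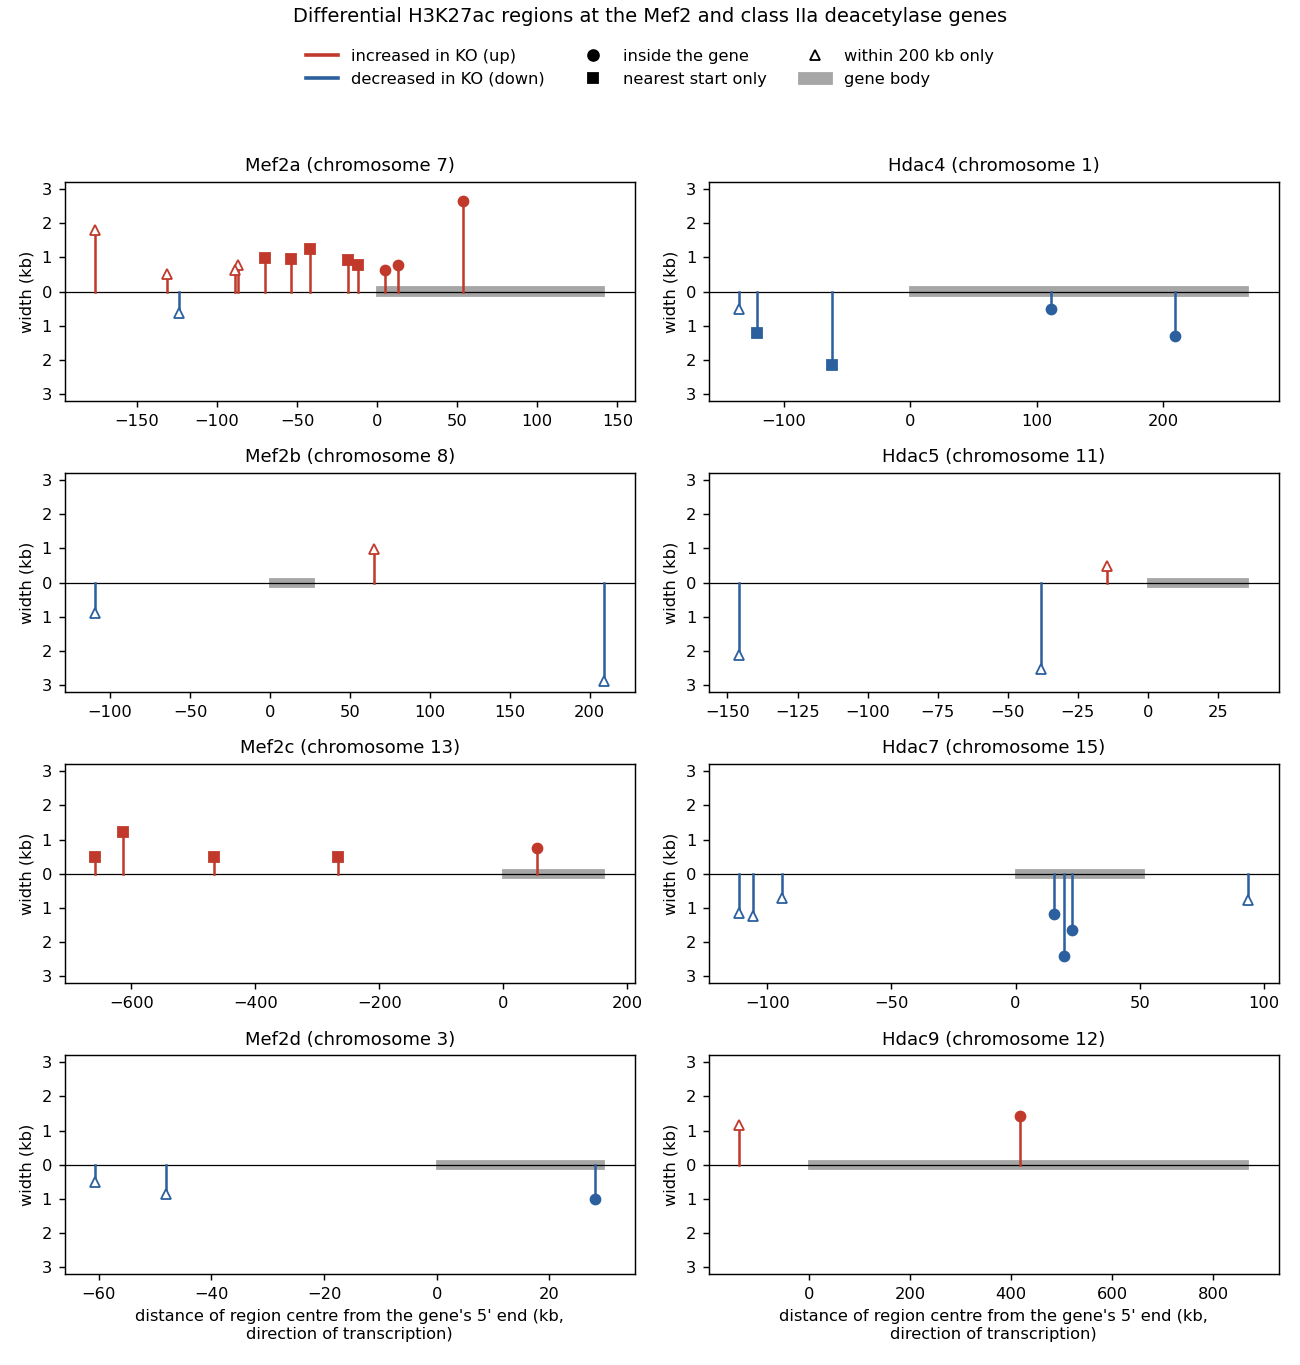
Each panel shows the regions assigned to 1 gene, with the distance of the region centre from the 5′ end of the gene on the horizontal axis (kb, direction of transcription) and region width on the vertical axis (kb), increased regions drawn upward in red and decreased regions downward in blue. Filled circles lie inside the gene, squares have it as nearest start, open triangles lie within 200 kb only, and the grey bar is the gene body. Mef2a and Mef2c carry red filled symbols and no blue filled ones, Hdac4 and Hdac7 blue filled symbols and no red filled ones.

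Mef2a, a principal MEF2 factor of adult muscle, had the most regions of the 8 genes. The gene (ENSMUSG00000030557.17, chromosome 7, 67231163 to 67372858, reverse strand) held 3 increased regions, and 5 more had it as the nearest start. All 8 were increased, and together they covered 8936 bp across an interval of 125541 bp that runs from the intron to 70010 bp upstream. The intronic region at chr7:67317823-67320481 was the widest, at 2659 bp, and its centre lay 2187 bp from an annotated Mef2a start. A region of 772 bp at chr7:67359381-67360152 lay in the same gene 13091 bp past the 5′ end, and one of 629 bp at chr7:67367627-67368255, 4917 bp past it, had its centre in a non-coding exon. For the regions of 772 and 629 bp the nearest annotated gene of any type was Gm44668, at 11213 and 3039 bp. None of the 8 regions was promoter-proximal, which here means within 1 kb of an annotated start.

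Upstream of Mef2a the 5 regions followed each other at 11847, 18084, 41809, 53632 and 70010 bp from the start, with widths from 778 to 1250 bp. The farthest lay in an intron of the long non-coding RNA gene Gm33926, whose start was 1065 bp from its centre. Gm33926 was also the nearest annotated gene of any type for the regions at 41809 and 53632 bp. Gaps between neighbouring regions of the 8 ranged from 5390 to 38899 bp with a median of 15412 bp, so they were spread along the locus and did not form 1 broad domain.

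A further 5 regions lay within 200 kb of Mef2a and had Lrrc28, the next gene upstream, as nearest protein-coding start. Of these, 4 were increased, at 86880, 88421, 130953 and 175921 bp from the Mef2a start. The remaining region, chr7:67496364-67496990, 123819 bp away, was the only decreased region assigned to Mef2a and held 2 AP-1 matches. It is 1 of 23 decreased regions on the whole of chromosome 7.

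The chromosome has to be read beside the Mef2a result. On chromosome 7, 973 of 996 regions (97.7%) were increased, and within 5 Mb on either side of Mef2a 90 of the 92 other regions (97.8%) were. The direction at Mef2a therefore did not stand out from its surroundings, and the part of the chromosome-wide direction in it was not tested. The number of regions can be set against other genes. Of all protein-coding genes, 35 had at least 8 increased regions inside or nearest, 25 of them on chromosome 7, where 420 of 2023 genes (20.8%) had any.

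**Figure D2:**
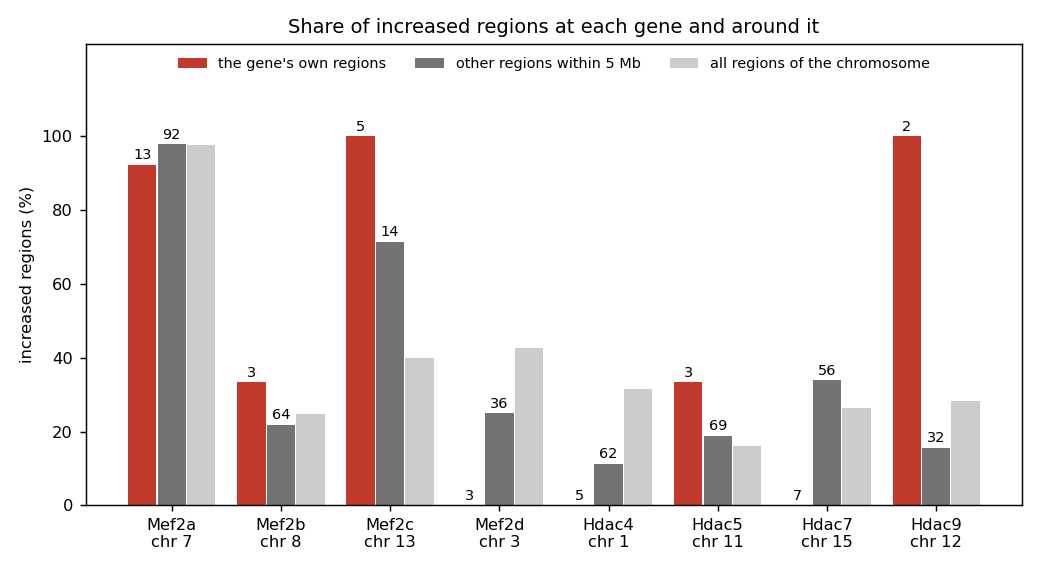
Bars give the percentage of increased regions among those assigned to each gene (red), among the other regions within 5 Mb of it (dark grey) and over its whole chromosome (light grey), with the number of regions printed above the red and dark grey bars. Mef2a, with 12 of 13, lies near its chromosome, where 97.7% of regions were increased. Mef2c and Hdac9, with 5 and 2 regions, lie above theirs, as do Mef2b and Hdac5, with 1 of 3 increased at each. Mef2d, Hdac4 and Hdac7 stand at 0.

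Mef2c, which drives MEF2-dependent transcription early in muscle differentiation, had 5 regions, all increased. The gene (ENSMUSG00000005583.16, chromosome 13, 83504034 to 83667080, forward strand) held 1 of them, a 756 bp intronic region at chr13:83558021-83558776, 54365 bp past the 5′ end and 13949 bp from the closest of its 27 annotated starts. The other 4 lay upstream, at 265909, 466340, 613717 and 658446 bp from the nearest Mef2c start. That interval holds few genes, and the next protein-coding gene upstream, Cetn3, lies 1706878 bp from Mef2c. The upstream regions were narrow, with 3 of them at the 501 bp minimum width seen here and the other at 1212 bp.

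These upstream regions belonged to Mef2c only because no other protein-coding start was closer. Against annotated genes of every type, none of the 4 kept Mef2c as nearest. The nearest genes were then Mir3961, the long non-coding RNA gene 2310067P03Rik for 2 regions, and the pseudogene Gm48156. No other region lay within 200 kb of Mef2c. On chromosome 13, 192 of 481 regions (39.9%) were increased, and within 5 Mb of Mef2c 10 of the 14 others (71.4%) were. At least 5 increased regions inside or nearest were present at 127 protein-coding genes, 5 of them on chromosome 13.

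Mef2d, a broadly expressed family member, had 3 regions, all decreased. The gene (ENSMUSG00000001419.17, chromosome 3, 88142372 to 88172086, forward strand) held 1, of 989 bp at chr3:88169923-88170911. Its centre lay in a UTR close to the 3′ end of the gene, which is 29715 bp long. It was 28045 bp past the 5′ end and 2165 bp from an annotated start. The other 2 lay 48073 and 60632 bp upstream at Iqgap3, which encodes a scaffold protein, and the farther one was centred 231 bp from an Iqgap3 start. On chromosome 3, 42.6% of regions were increased, and within 5 Mb of Mef2d 9 of 36 (25.0%) were.

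Mef2b, which is best known from lymphoid cells, had no region inside it or nearest to it. The gene (ENSMUSG00000079033.10, chromosome 8, 70139711 to 70167488, forward strand) lies in a gene-dense stretch, and its 3 regions within 200 kb were all inside other genes. An increased region of 994 bp lay in an intron of Slc25a42, a mitochondrial carrier, 52151 bp from a Mef2b start, and it held a MEF2 match and the only match at the 41 regions to the ERR motif TCAAGGTCA. Repeat-masked bases made up 52.3% of this region, beside a median of 14.0% over all regions. Decreased regions lay in introns of Mau2, 109284 bp away, and Upf1, 195923 bp away, and the Mau2 region held a MEF2 match too. Of all 41, the Upf1 region lay closest to the 200 kb limit from within. The closest regions beyond the limit lay 210373 bp from Mef2a (increased, nearest Adamts17), 211768 bp from Hdac5 (decreased, Dusp3) and 216470 bp from Mef2b (decreased, Gatad2a).

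Among the deacetylases, Hdac4, which represses MEF2 targets in muscle and responds to denervation, had 5 regions, all decreased. The gene (ENSMUSG00000026313.16, chromosome 1, 91928779 to 92195699, reverse strand) held 2 intronic regions. That at chr1:91986186-91987489 was 1304 bp wide and lay 208861 bp past the 5′ end, and that at chr1:92083897-92084397 was 501 bp wide and lay 111552 bp past it. Upstream, regions of 2146 and 1221 bp lay 61931 and 120855 bp from the start with Hdac4 as nearest protein-coding gene, and the latter is the one with 2 AP-1 matches shown above. Against annotated genes of every type, the long non-coding RNA gene Gm29099 was nearest to that region, at 7956 bp. Another, Gm26720, was nearest to the intronic region of 1304 bp, at 2213 bp. The remaining region, of 501 bp at 134867 bp, was nearer to Ndufa10, which encodes a subunit of mitochondrial complex I. The 4 regions inside or nearest covered 5172 bp across 330979 bp.

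The surroundings of Hdac4 were also mostly decreased. Within 5 Mb, 55 of 62 other regions were decreased and 11.3% increased, beside 31.5% over chromosome 1. At least 4 decreased regions inside or nearest were present at 443 protein-coding genes, 37 of them on chromosome 1. The next gene downstream of Hdac4 is Twist2, 80750 bp away, which encodes a repressor of myogenic differentiation, and the lists do not tell on which gene a region acts.

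Hdac7, which is best known from endothelium and lymphocytes, had the most compact set, with 3 decreased regions in its introns and 4 more within 200 kb. The gene (ENSMUSG00000022475.19, chromosome 15, 97792664 to 97844502, reverse strand) held regions of 1634 bp at chr15:97820880-97822513, 2394 bp at chr15:97823741-97826134 and 1190 bp at chr15:97828466-97829655. They lay between 15441 and 22805 bp past the 5′ end, covered 5218 bp of 8776 bp and were separated by 2331 and 1227 bp. The wider pair, each joined by the peak merging from 2 peaks, are those with a MEF2 and an AP-1 match shown above. The MEF2 matches lay at -338 and 339 bp from the region centres, so both fell outside the central 500 bp.

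The other Hdac7 regions were decreased too. One was centred 133 bp from a start of Rapgef3, which encodes the cAMP-responsive exchange factor EPAC1, and 3 lay 93924, 105803 and 111202 bp upstream, nearest to Tmem106c. On chromosome 15, 26.4% of regions were increased, and within 5 Mb of Hdac7 19 of 56 (33.9%) were. At least 3 decreased regions inside or nearest were present at 787 protein-coding genes.

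Hdac9, whose product represses MEF2 targets in a feedback loop and responds to motor innervation, was the only deacetylase with increased regions and no decreased ones. The gene (ENSMUSG00000004698.10, chromosome 12, 34047580 to 34917095, reverse strand) is 869516 bp long. Its single region inside, 1423 bp at chr12:34498387-34499809, lay in an intron 417997 bp past the 5′ end and 29206 bp from an annotated start, and it held no match to any of the 6 motifs searched. A region of 1172 bp lay 138489 bp upstream at Snx13, which encodes a sorting nexin, and held 2 MEF2 matches. On chromosome 12, 28.3% of regions were increased, and within 5 Mb of Hdac9 5 of the 32 others (15.6%) were. One increased region inside or nearest is the level that 11.3% of all protein-coding genes and 46.5% of the 737 genes of at least 250 kb reached. The gene next to the 3′ end is Twist1, 87750 bp away, another repressor of myogenesis, and a region inside Hdac9 need not act on Hdac9.

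Hdac5, a deacetylase exported from muscle nuclei on exercise, had no region inside it or nearest to it. The gene (ENSMUSG00000008855.17, chromosome 11, 102194432 to 102230166, reverse strand) had 3 regions within 200 kb. An increased region of 501 bp lay 14807 bp upstream but was nearer to BC030867. A decreased region of 2523 bp was centred 480 bp from a start of Asb16, 38097 bp from Hdac5, and one of 2109 bp lay 145769 bp away, nearest to Slc4a1, the anion exchanger of red cells. On chromosome 11, 16.2% of regions were increased.

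Where a gene had several regions inside or nearest, they shared a direction. This held for the 4 genes with at least 3 such regions, Mef2a, Mef2c, Hdac4 and Hdac7. Sharing was common elsewhere, since 852 of the 1347 protein-coding genes with at least 3 such regions (63.3%) had regions of 1 direction, 260 of them increased and 592 decreased.

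The increased and decreased regions of the 8 genes differed in base composition. GC content was 41.9% ± 6.49 (SD over 21 regions) in increased regions and 51.6% ± 3.34 (SD over 20) in decreased regions. Over all regions the corresponding means were 43.5% ± 5.56 and 48.0% ± 5.28, the same order. The lowest mean was that of Mef2c, at 35.3% over 5 regions, and Hdac7 reached 54.5% over its 3 regions inside the gene. Decreased regions had a median width of 1176 bp and increased ones of 778 bp, with 863.5 and 777 bp over all regions of each direction. A width of at least 1 kb was reached by 11 of 20 decreased and 6 of 21 increased regions.

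**Figure D3:**
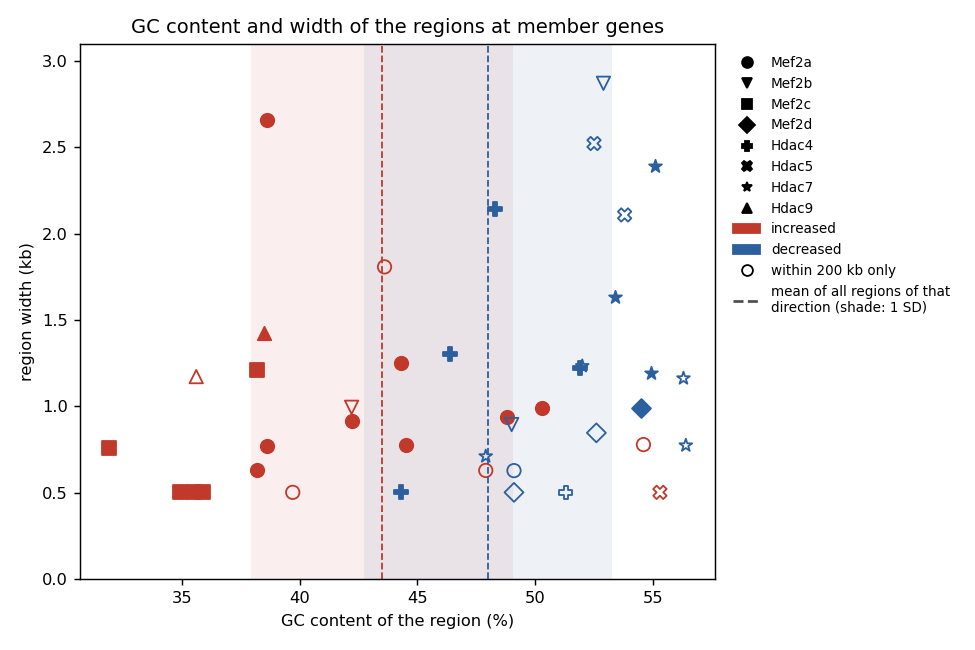
Each of the 41 regions is drawn by its GC content in percent (horizontal axis) and its width in kb (vertical axis), red when increased and blue when decreased, with the symbol giving the gene and open symbols those within 200 kb only. Dashed lines and shading give the mean and 1 SD over all regions of that direction. Most red points lie on the left, those of Mef2c among the lowest in GC content, and the blue points of Hdac7 lie on the right.

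Most regions lay away from promoters. Of 41, 19 (46.3%) were intergenic, 16 (39.0%) intronic and 4 (9.76%) promoter-proximal, beside 34.1%, 49.8% and 12.6% over all regions. The 4 promoter-proximal regions lay at starts of Rapgef3, Asb16, Iqgap3 and Gm10933, and none at a start of the 8 genes themselves.

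Motifs were counted on both strands in the central 500 bp. The MEF2 consensus was present in 2 of 41 regions (4.88%), 1 increased and 1 decreased, beside 7.72% of all regions. Both were assigned to Mef2b by distance alone. None of the 14 increased and 8 decreased regions inside or nearest had a match there, beside 12.2% of all increased and 5.3% of all decreased regions. The AP-1 motif was present in 13 (31.7%), beside 14.1%, and these were 6 increased and 7 decreased regions, so that it did not separate the directions. The E-box CAGCTG, bound by myogenic factors, was present in 31.7% beside 34.7% of all regions, the TEAD motif (ACATTCC or GCATTCC) in 12.2% beside 15.2%, and the RUNX motif (TGTGGT or TGCGGT) in 48.8% beside 38.9%. By direction, RUNX matches fell in 7 of 21 increased (33.3%) and 13 of 20 decreased regions (65.0%), beside 37.3% and 39.7% over all regions of each direction, a difference that was not tested. The ERR motif was present in none, beside 1.22%. Over whole regions the MEF2 consensus was present in 9 (22.0%, beside 15.3%) and AP-1 in 19 (46.3%, beside 25.0%). A match gives only the letters, and binding was not measured.

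The proteins that act on this pair were described from 58 genes, kinases, phosphatases, 14-3-3 proteins, corepressors, coactivators and partners. Of these, 18 (31.0%) had an increased region inside or nearest and 20 (34.5%) a decreased one, 7 had both and 27 neither. Over all protein-coding genes the shares were 11.3% and 18.8%. With the 200 kb rule the counts were 28 (48.3%) and 49 (84.5%), beside 37.7% and 57.7% of all. The most regions were those of Nfatc2, a calcineurin-dependent factor that works with MEF2, with 10 decreased regions and no increased one, 7 of the 10 inside the gene. The calcium/calmodulin-dependent kinase gene Camk1g followed with 8 decreased and 1 increased, and Bcl6, a repressor that recruits class IIa deacetylases, with 6 decreased and 1 increased. With 6 regions each came Camk2d (4 decreased, 2 increased), Ppargc1a, which encodes the coactivator PGC-1α (4 decreased, 2 increased), and Vgll2, a muscle cofactor of TEAD and MEF2 (6 increased). Of the Camk2d regions 4 lay inside the gene, and none of the Camk1g, Bcl6, Ppargc1a or Vgll2 regions lay inside theirs. From a start of the gene, those of Camk1g lay 47731 to 610291 bp away and those of Bcl6 27793 to 195447 bp. Those of Ppargc1a lay 70556 to 512616 bp away and those of Vgll2 11030 to 72409 bp. Bcl6 lies on chromosome 16, where 7.8% of regions were increased, and Vgll2 on chromosome 10, where 69.1% were, so that most of their regions had the direction that prevailed on their chromosome.

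Of 35 genes known as MEF2 targets, 4 (11.4%) had an increased region inside or nearest and 10 (28.6%) a decreased one, 2 had both and 23 neither. Over all protein-coding genes the shares were 11.3% and 18.8%. With the 200 kb rule the counts were 17 (48.6%) and 26 (74.3%), beside 37.7% and 57.7% of all. Ppargc1a, which is both partner and target, led with the 6 regions given above. Klf4, a growth-restraining factor on chromosome 4, where 7.53% of regions were increased, had 3 decreased regions, and Myom2, a protein of the sarcomere M-band, had 1 of each direction. No Klf4 region lay inside the gene, and their distances from its start were 164186 to 537667 bp. The Myom2 regions, 1 of them inside the gene, lay 15174 and 422998 bp from a start. Tied with 1 region each were 9 others, increased at Smyd1 and Lmod3 and decreased at Klf2, Jun, Xirp1, Myom1, Trim63, Klhl31 and Dlk1. Their distances from a start of the gene ran from 3885 bp at Xirp1 to 231920 bp at Jun. Inside or nearest, no region was present at the muscle genes Myog and Ckm or at Nr4a1, a classic target of MEF2 and class IIa deacetylases. With the 200 kb rule Ckm had 4 increased regions, on chromosome 7, Nr4a1 had 5 decreased regions and Myog still had none.

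**Figure D4:**
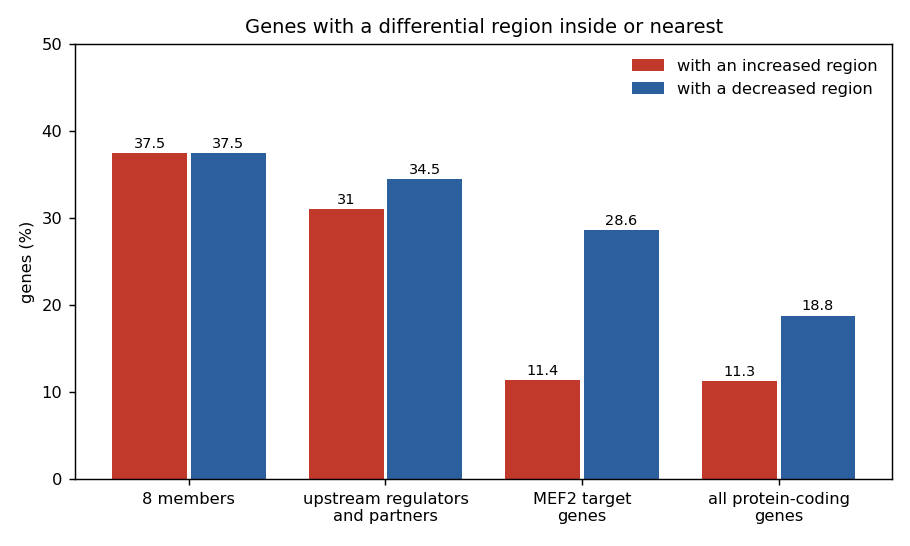
Bars give the percentage of genes with at least 1 increased (red) or decreased (blue) region inside the gene or nearest to it, for the 8 genes, the 58 upstream regulators and partners, the 35 MEF2 targets and all 21938 protein-coding genes. The regulators stand at 31.0% and 34.5%, the targets at 11.4% and 28.6%, and all genes at 11.3% and 18.8%. Gene length was not matched between the groups.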

How the data were processed

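CUT&RUN reads were aligned to mm10 by the authors, per the labels, with BWA 2.2.1, broad peaks were called with HOMER 4.11, and regions differing by 2-fold or more in peak intensity were taken. How the 2 libraries per group and the IgG libraries entered the calls is not given in the sources used here, and the H3K27ac antibody has 1 supplier in the labels and another in the methods. The deposited files are 2 interval lists, 1 per direction (3917 increased and 7263 decreased regions). The score column the authors deposited is 1 throughout and was not used. Whether differences in depth, reaction efficiency or copy number between cultures entered the lists through the 2-fold threshold was not tested, and depth per library is unknown.

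Coordinates were counted from 1. Of 11180 regions, 1 on an unplaced sequence was left out. Genes, any-transcript starts and exons came from GENCODE M21 (21938 protein-coding genes), and bases, GC content and motifs from GRCm38.p6, read with pysam 0.24.0 and pandas 2.3.3. Wilson intervals are at 95%. The search for the nearest start was tested on simulated positions, and the motif search on simulated sequences with planted MEF2 motifs. The counts per gene were not tested in this way. Counts were described beside the same counts over all protein-coding genes or regions, without a test. The text names the 8 genes, the nearest protein-coding gene of regions within 200 kb only, the 5 genes per list with the most regions inside or nearest, with ties, and Nrip1. Neighbouring genes, nearest genes of any type, Myog, Ckm, Nr4a1 and the genes beyond the 200 kb limit were named after their values were seen. The 8 genes and the lists were chosen with earlier results of these data known. Alternatives covered the distance limit, the start and gene-body definitions, merging within 10 kb, a minimum width of 1 kb, the window searched for motifs and leaving out genes on chromosomes 4, 7, 10 and 16.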

Additional observations from a re-analysis of the deposited data

How the results depend on the processing

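No paired analysis was possible because the deposited lists hold no value per library, and for the same reason no replicate could be left out. Of 60 alternative values for the main counts and shares, 41 stayed within 1.5 times the reported count, or within the interval of the reported share, and 19 moved. That interval is wide, and it covers counting error over regions only. Within it, the increased share was 58.1% with a limit of 100 kb, 39.5% with 500 kb and 63.6% without the distance criterion, against 51.2%. With the nearest start taken from all annotated genes it was 45.9%. Over all regions the share was 35.0%. The decreased regions numbered 13 with a limit of 100 kb, 46 with 500 kb and 8 without the distance criterion, against 20. Without that criterion, 3 of the genes had an increased and 3 a decreased region, the upstream regulators with an increased or decreased region fell to 18 and 20, and the MEF2 targets to 4 and 10. With regions of at least 1 kb alone, 6 increased and 11 decreased regions were left (35.3% increased), 3 genes had an increased region, the MEF2 consensus was at 0% in the central window, and 10 regulators and 7 targets had an increased region. Over whole regions the MEF2 share was 22.0%. Without genes on chromosomes 4, 7, 10 and 16, of the 8 only Mef2a, 9 increased regions were left (32.1% increased). Of 142 values for single genes, 113 stayed and 29 moved. Fewer regions are counted by construction in each of these narrower settings. Depth is unknown, so a gene without a region may only have missed the 2-fold threshold.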
